A study of Mus musculus with 13 samples.

Results

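Epithelial genes, 9 in number, were followed across the study: the adhesion gene Epcam, the tight junction genes Cldn3 and Cldn7, the transcription factor gene Elf5, and the keratin genes Krt5, Krt14, Krt8, Krt18 and Krt19. They were chosen by name, and each of the 9 symbols had 1 row among the 54532 genes of the table. Total RNA was sequenced from the inguinal white fat pad, which lies under the skin of the groin, of 13 individual mice fasted for 12 h. SF_HPD held 5 sleep-fragmented mice fed a high-protein diet with 50% of its energy from protein, 12% from fat and 38% from carbohydrate. SF_ConD held 5 mice with fragmented sleep on normal chow, and SC_ConD held 3 mice with undisturbed sleep on normal chow. The labels used here give no sex, age or strain. The set was drawn up with earlier results of these libraries known. Among them was that a list of epithelial markers lay lower in SF_HPD than in SF_ConD. The members' values in that contrast are therefore a description, and no test of the members is read from it. The other contrasts each share a group with it, so the members' signs there are also description only.

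In the mouse the mammary gland grows as branching ducts inside the subcutaneous fat pads, and the inguinal pad holds one of these glands beside a lymph node. A duct has an inner luminal layer, rich in the keratins of simple epithelia (Krt8, Krt18 and Krt19), and an outer basal layer with the keratins of stratified epithelia (Krt5 and Krt14). Keratins form filaments as pairs of a type II protein (Krt5 or Krt8) with a type I protein (Krt14, Krt18 or Krt19). Epcam joins epithelial cells and forms complexes with the claudin encoded by Cldn7, the claudins seal the gaps between cells, and Elf5 drives the differentiation of luminal progenitors toward milk secretion. Adipocytes are not known for these proteins, so in a fat pad their transcripts mark other cells. In a bulk sample, fewer cells of a type and less RNA per cell cannot be told apart.

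Recovered reads on genes, obtained from the deposited FPKM values (fragments per kilobase of gene, scaled by library), ran from 14815592 in SF_HPD 4 to 18303302 in SF_ConD 4. The library total implied by FPKM was 0.479 times the recovered reads in SF_HPD 2, the lowest, and up to 1.23 times elsewhere, so a read counts for more FPKM in SF_HPD 2. Several libraries stood apart from the label of their tissue or from their group. SF_HPD 2 had a mean log2(FPKM + 1) of 4.16 over 10 adipocyte genes, against 7.47 to 9.23 in the other 12 libraries, and Adipoq, the adiponectin gene, was at 26.1 FPKM there and at 666 FPKM or more elsewhere. The genes of uroplakins, the plaque proteins of the urinary tract lining, were looked at after this library's values had been seen. In SF_HPD 2 Upk3a was at 6966 FPKM, Upk1a at 3269, Upk1b at 1881, Upk2 at 1239.6 and Upk3b at 248, and in the other 12 libraries the highest of these values was 51.0 FPKM, for Upk3a in SF_ConD 2. SF_HPD 4 and SC_ConD 3 held skeletal muscle transcripts (Acta1 at 6792 and 1306 FPKM). Their muscle lists had a mean log2(FPKM + 1) of 9.75 and 6.56, against at most 3.08 in the other 11 libraries. SC_ConD 2 and 3 held liver transcripts (Alb at 4223 and 1614 FPKM) and Y-linked Ddx3y at 3.64 and 2.93 FPKM, against at most 0.228 FPKM in the other 11 libraries. They also held X-linked Xist, at 1.88 and 1.35 FPKM, within the range of 0.928 (SF_ConD 1) to 39.4 FPKM (SF_HPD 4) of the other 11. B cell and lymph node markers had a mean log2(FPKM + 1) of 4.58 to 5.56 in SF_HPD 4 and 5 and SF_ConD 1, 4 and 5, called lymphoid-rich here, and of 0.37 to 1.76 in the rest. Expression leaned toward long genes in SF_HPD 1 and 4, SF_ConD 3 and SC_ConD 1, where the rank correlation of each gene's deviation with gene length was 0.442 to 0.527. It was at most 0.0606 in the other 9 libraries. Of these, SF_HPD 2, 3 and 5, SF_ConD 1 and 2 and SC_ConD 2 and 3 leaned toward short genes, at -0.453 to -0.248. SF_ConD 4 and 5 were at 0.0606 and -0.0290.

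**Figure D1:**
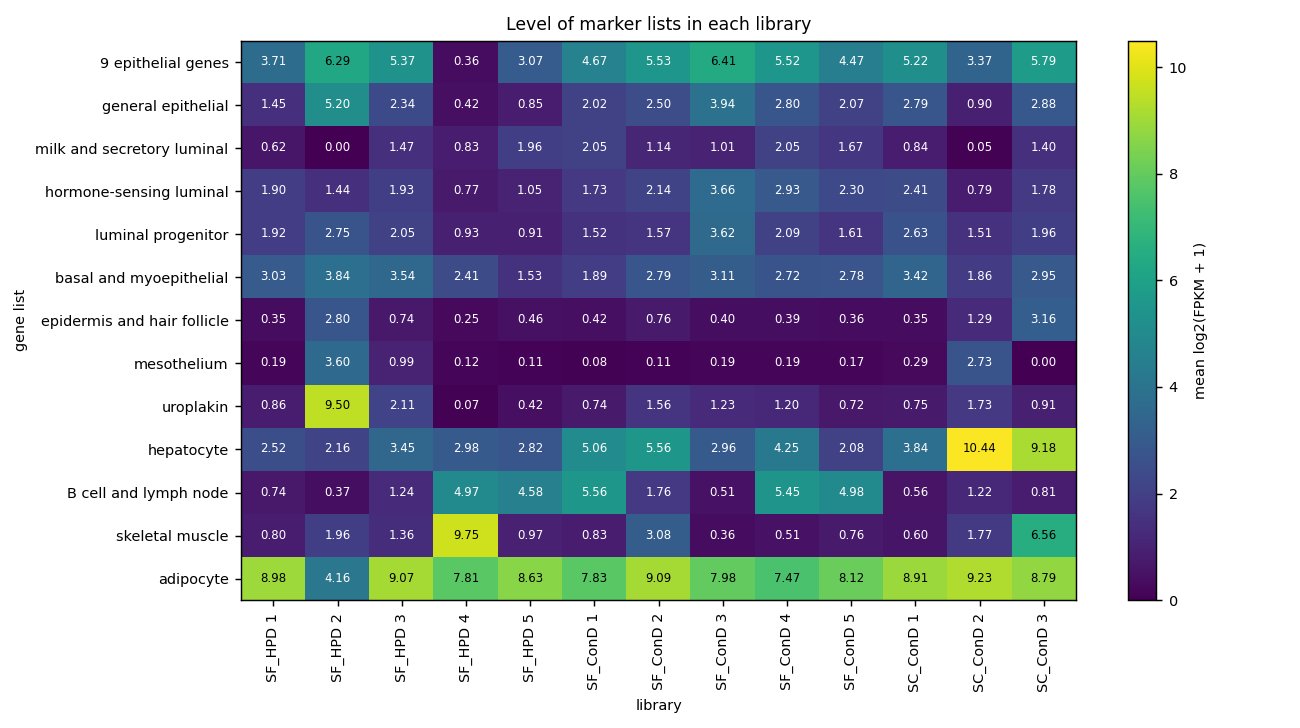
Mean log2(FPKM + 1) of the 9 epithelial genes and of 12 other marker lists (rows) in each of the 13 libraries (columns), with the value printed in each cell. The 9 genes stand at 0.36 in SF_HPD 4 and 6.29 in SF_HPD 2, where the uroplakin list reaches 9.503 and the adipocyte list 4.16.

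Epcam (ENSMUSG00000045394, chromosome 17, 87635979 to 87651106 on the plus strand) was at 17.4, 47.2, 50.8, 0.625 and 10.1 FPKM in SF_HPD 1 to 5, at 29.8, 60.2, 178, 67.4 and 20.7 FPKM in SF_ConD 1 to 5, and at 55.6, 4.17 and 52.2 FPKM in SC_ConD 1 to 3. SF_ConD 3 was highest and SF_HPD 4 lowest, and each pair of groups overlapped. Cldn3 (ENSMUSG00000070473, chromosome 5, 134986214 to 134987472, plus strand) was at 9.15, 0, 31.8, 0 and 4.65 FPKM in SF_HPD 1 to 5, at 20.9, 47.8, 134, 51.2 and 19.2 FPKM in SF_ConD 1 to 5, and at 45.1, 13.5 and 52.0 FPKM in SC_ConD 1 to 3. Only SF_HPD 3 of the SF_HPD libraries reached the range of the other groups. No read of Cldn3 was recovered in SF_HPD 2 and 4, which allows up to 0.275 and 0.138 FPKM (3 reads, counting error only), whereas SF_HPD 2 gave 834 reads of Epcam. Cldn7 (ENSMUSG00000018569, chromosome 11, 69964779 to 69967885, plus strand) was at 2.45, 44.7, 4.11, 0 and 1.45 FPKM in SF_HPD 1 to 5, at 3.09, 7.29, 22.4, 7.69 and 3.22 FPKM in SF_ConD 1 to 5, and at 7.58, 2.32 and 5.06 FPKM in SC_ConD 1 to 3. SF_HPD 2 was the highest library for Cldn7 and shared the lowest place for Cldn3.

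The DNA before the start sites of Epcam, Cldn3 and Krt5 is shown for a junction partner, a claudin and a basal keratin, 3 members with unlike levels in SF_HPD 2 (834, 0 and 8323 reads). The sequences are from RefSeq promoter windows (GRCm38.p6), and the full window of each of the 3 holds the E-box motif named below. Each line gives the 150 bases before the annotated start, 5′ to 3′ on the strand of the gene, at chr17:87635829-87635978 (plus), chr5:134986064-134986213 (plus) and chr15:101712906-101713055 (minus). Capitals mark matches to CACCTG on either strand, the E-box that the Snail and Zeb repressors of epithelial genes are known to bind.
Epcam: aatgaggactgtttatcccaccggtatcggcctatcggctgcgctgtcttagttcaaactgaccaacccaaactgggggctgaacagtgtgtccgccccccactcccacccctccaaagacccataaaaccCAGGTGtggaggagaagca
Cldn3: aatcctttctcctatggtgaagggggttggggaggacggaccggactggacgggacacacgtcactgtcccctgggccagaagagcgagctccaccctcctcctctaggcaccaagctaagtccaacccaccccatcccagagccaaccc
Krt5: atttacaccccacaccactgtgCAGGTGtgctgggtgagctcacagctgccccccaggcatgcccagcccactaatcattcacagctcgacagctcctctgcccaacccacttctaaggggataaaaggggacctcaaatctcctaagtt

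RefSeq windows of 250 bases before to 50 after a start were at hand for 8 of the 9 members, 10 windows in all. The only window of Krt14, at 100205981 to 100206280, lies inside the listed gene, which starts at 100207548 on the minus strand. The later window of Cldn7 and both windows of Elf5 also lie inside their genes. CACCTG or its reverse complement stood in 8 of these 10 windows (7 of the 8 members), against 20.2% of all 32851 windows. For Cldn3 the match lay after the start, outside the stretch printed. The ETS motif CCGGAA stood in 3 of the 10 windows (2 of the 8 members) against 14.9% of all windows, TATAAA in 1 of 10 against 13.6%, and the Grainyhead-like motif AACCGGTT in 0 of 10 against 0.146%. Within the matches, TATAAA on both strands overlapped itself in Krt8. A match is a description of the letters and was not tested for binding.

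Elf5 (ENSMUSG00000027186, chromosome 2, 103411688 to 103450989, plus strand) was the lowest member per length. It stood at 0.693, 2.54, 1.92, 0 and 0.566 FPKM in SF_HPD 1 to 5, at 3.01, 5.29, 6.84, 2.56 and 1.18 FPKM in SF_ConD 1 to 5, and at 2.72, 0.568 and 5.06 FPKM in SC_ConD 1 to 3. SF_ConD 3 was again highest, SF_HPD 4 gave no read, and the values of all 3 groups overlapped.

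The basal keratins followed different libraries. Krt5 (ENSMUSG00000061527, chromosome 15, 101707070 to 101712898, minus strand) was at 7.67, 438, 15.5, 0 and 1.06 FPKM in SF_HPD 1 to 5, at 5.08, 10.2, 18.4, 8.31 and 8.28 FPKM in SF_ConD 1 to 5, and at 14.7, 0.294 and 15.9 FPKM in SC_ConD 1 to 3. SF_HPD 2 exceeded the next library for Krt5, SF_ConD 3, by more than an order of magnitude. Krt14 (ENSMUSG00000045545, chromosome 11, 100203162 to 100207548, minus strand), whose protein pairs with that of Krt5, was at 8.76, 4.34, 62.7, 0 and 5.22 FPKM in SF_HPD 1 to 5, at 21.3, 31.5, 24.97, 33.8 and 26.9 FPKM in SF_ConD 1 to 5, and at 21.2, 1.16 and 99.96 FPKM in SC_ConD 1 to 3. SF_ConD was the most even group for Krt14, with 27.7 ± 5.05 FPKM (SD, n = 5), against 16.2 ± 26.2 FPKM in SF_HPD (SD, n = 5) and 40.8 ± 52.2 FPKM in SC_ConD (SD, n = 3).

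The luminal keratins were the most abundant members. Krt8 (ENSMUSG00000049382, chromosome 15, 101996698 to 102004482, minus strand) was at 36.2, 1005, 158, 0.888 and 22.3 FPKM in SF_HPD 1 to 5, at 86.7, 150.2, 306, 196 and 83.3 FPKM in SF_ConD 1 to 5, and at 117, 157 and 179.6 FPKM in SC_ConD 1 to 3. Krt18 (ENSMUSG00000023043, chromosome 15, 102028180 to 102032027, plus strand), its type I partner, was at 44.5, 5015, 364, 0.968 and 78.3 FPKM in SF_HPD 1 to 5, at 247, 403, 602, 351 and 128 FPKM in SF_ConD 1 to 5, and at 197, 151 and 743 FPKM in SC_ConD 1 to 3. Both were highest in SF_HPD 2 and lowest in SF_HPD 4, and the groups overlapped. The pair are neighbours, 23697 bases apart with no other gene of the table between them, whereas Krt19 and Krt14 lie 54496 bases apart on chromosome 11. Krt19 (ENSMUSG00000020911, chromosome 11, 100140810 to 100148665, minus strand) was at 72.7, 1158, 232, 0.562 and 34.8 FPKM in SF_HPD 1 to 5, at 141, 269.9, 579, 367 and 113 FPKM in SF_ConD 1 to 5, and at 201, 50.7 and 203 FPKM in SC_ConD 1 to 3. SF_HPD 4 gave 18 to 30 reads of each luminal keratin and 22 of Epcam, and none of the other 5 members.

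**Figure D2:**
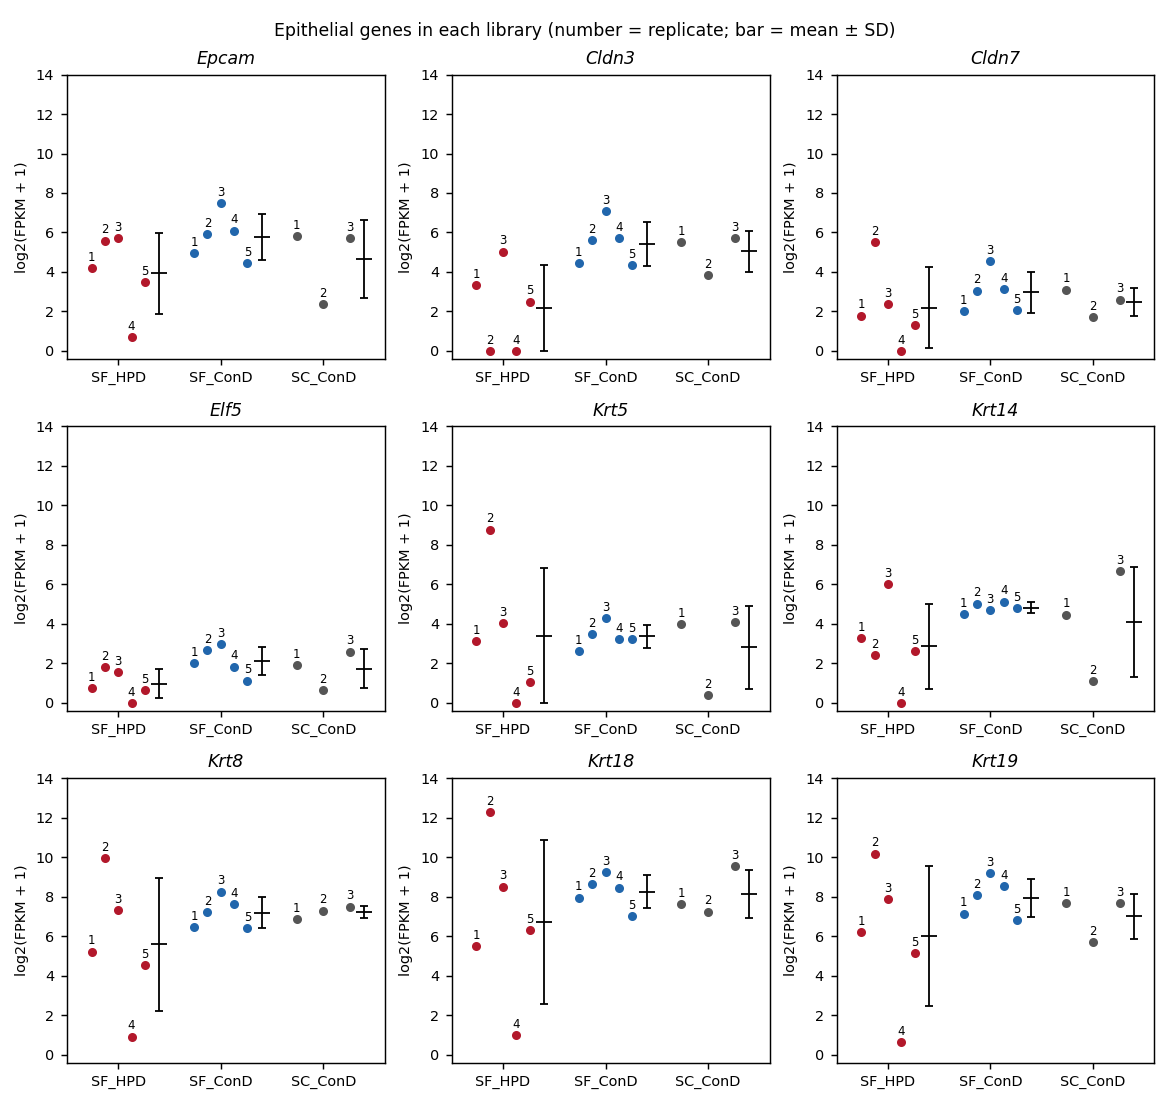
Level of each of the 9 genes as log2(FPKM + 1) in every library of SF_HPD, SF_ConD and SC_ConD (points, numbered by replicate), with the group mean ± SD of these log values as a bar. SF_HPD spans from 0 or near 0 in replicate 4 to the highest value of all libraries in replicate 2 for Cldn7, Krt5, Krt8, Krt18 and Krt19.

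Ratios between members within one library do not depend on how that library's FPKM values were scaled. In the 10 libraries other than SF_HPD 2 and 4 and SC_ConD 2, Cldn3 over Epcam lay between 0.461 (SF_HPD 5) and 0.997 (SC_ConD 3) and Krt19 over Epcam between 3.26 (SF_ConD 3) and 5.46 (SF_ConD 5). Epcam itself ranged from 10.1 to 178 FPKM over these 10 libraries. Cldn7 over Epcam lay between 0.081 (SF_HPD 3) and 0.155 (SF_ConD 5), and Krt8 over Krt19 between 0.498 (SF_HPD 1) and 0.883 (SC_ConD 3). Each of these 4 ratios spanned a narrower range over those libraries than Epcam did.

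SF_HPD 2 lay outside all but one of these ranges. Its ratio of Krt19 to Epcam was 24.5, of Cldn7 to Epcam 0.947 and of Krt5 to Krt14 100.9, while Cldn3 over Epcam was 0 and Krt8 over Krt19 was 0.867. All 9 milk and secretory genes were at 0 in this library. SC_ConD 2 was the other library with its own proportions: Krt8 over Krt19 was 3.09, Krt19 over Epcam 12.2, Cldn3 over Epcam 3.24 and Cldn7 over Epcam 0.557, on 79 reads of Epcam. In it the liver list had a mean log2(FPKM + 1) of 10.44, and the mesothelial list 2.73, with Upk3b at 48.8 FPKM, Upk1b at 14.8 FPKM and Msln at 12.1 FPKM. Upk1b and Upk3b are on both the mesothelial and the uroplakin list. Hepatocytes are known to use Krt8 and Krt18 and mesothelium all 3 luminal keratins. SC_ConD 3, with a liver list at 9.18 and a mesothelial list at 0, had ratios of Krt8 to Krt19 of 0.883 and of Krt19 to Epcam of 3.90. The part of liver or mesothelial RNA in these levels was not tested.

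Basal against luminal proportions were wider. Krt14 over Epcam ran from 0.141 in SF_ConD 3 to 1.91 in SC_ConD 3 without SF_HPD 2 and 4 and SC_ConD 2. Epidermal genes stood high in SC_ConD 3, with Krtdap at 442 FPKM, Krt15 at 26.7 FPKM and Ivl at 9.11 FPKM, and its list was at 3.16, against 0.35 to 2.80 in the others apart from SF_HPD 4 at 0.25. SF_HPD 2 had the next highest epidermal list, with Krt15 at 591 FPKM, Ivl at 366 FPKM, Krtdap at 31.98 FPKM and Dmkn at 20.4 FPKM. In it Lor was at 0.974 FPKM and Krt1 at 3.95 FPKM, and 4 of the 14 genes were at 0, against 5 to 9 in the rest of SF_HPD. The cornified layer gene Flg was at 0 in SF_HPD 2, as in each library but SC_ConD 3. Krt5 over Krt14 was 0.876, 0.738 and 0.697 in SF_HPD 1, SF_ConD 3 and SC_ConD 1, and 0.159 to 0.322 in SF_HPD 3 and 5, the other 4 SF_ConD libraries and SC_ConD 2 and 3. The 3 libraries with the larger values are those that lean toward long genes and still had basal keratin reads. The gene lengths used were 2197 bases for Krt5 and 1758 bases for Krt14, and the part of the length trend was not tested.

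**Figure D3:**
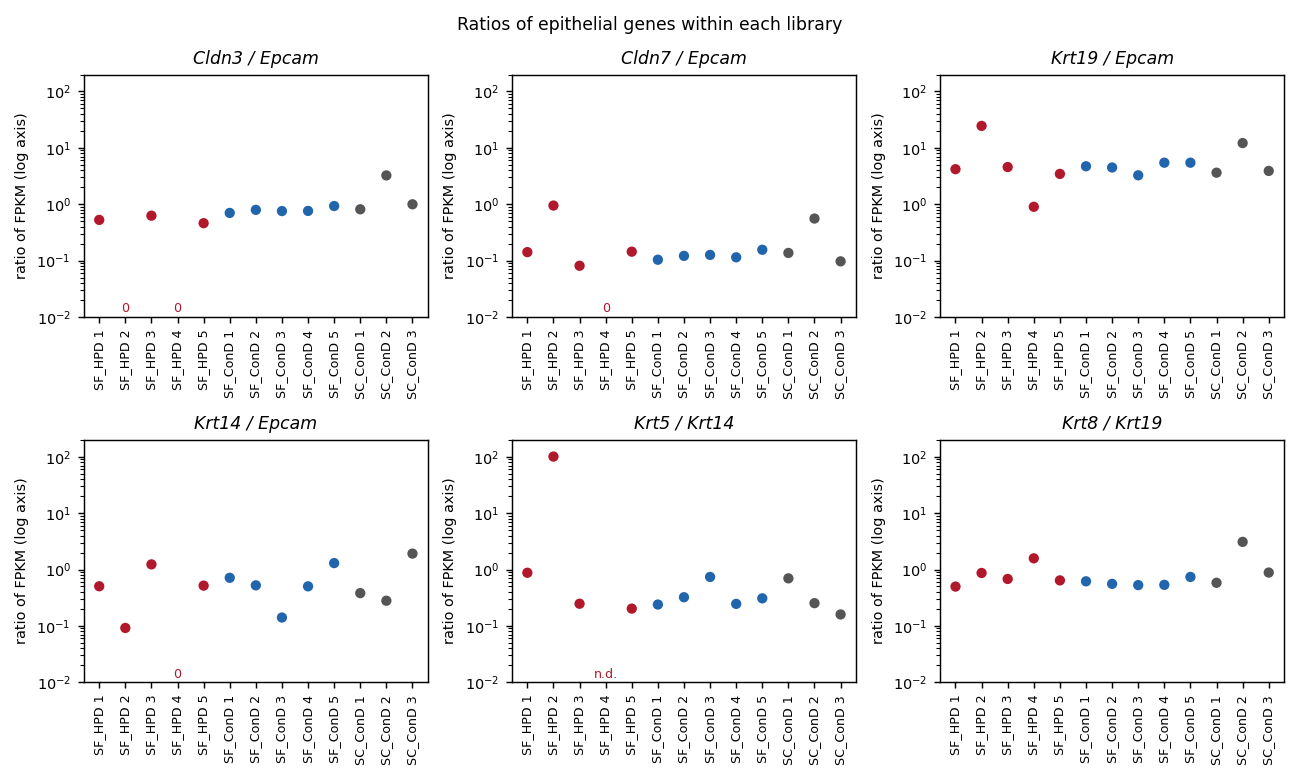
Ratio of FPKM values between pairs of epithelial genes in each library, on a log axis, with 0 marked where the upper gene had no read and n.d. where the lower gene had under 10 reads. Cldn3 over Epcam stays between 0.461 and 0.997 apart from SF_HPD 2 and 4 at 0 and SC_ConD 2 at 3.24, while Krt5 over Krt14 reaches 100.9 in SF_HPD 2.

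The wider epithelial programme was read from 18 general epithelial genes, all kept by the filter on low values (3 or more libraries at 1 FPKM or above). The 3 with the highest mean were the claudin gene Cldn4, the vesicle traffic gene Rab25 and the keratin gene Krt7. Cldn4 was at 8.25, 217, 20.7, 0.0319 and 1.4998 FPKM in SF_HPD 1 to 5, at 11.8, 29.4, 177, 41.5 and 24.3 FPKM in SF_ConD 1 to 5, and at 55.1, 1.48 and 25.96 FPKM in SC_ConD 1 to 3. SF_HPD 2 and SF_ConD 3 were its highest libraries and SF_HPD 4 its lowest. Rab25 reached 453 FPKM in SF_HPD 2 and 33.0 FPKM or less elsewhere, and Krt7 reached 384 FPKM in SF_HPD 2 and 40.3 FPKM or less elsewhere. The hormone-sensing luminal genes Foxa1, a pioneer factor of the oestrogen response, and Prlr, the prolactin receptor gene, were highest in SF_ConD 3 at 68.6 and 58.5 FPKM. Prlr was at 0 in SF_HPD 2, where Foxa1 was at 47.4 FPKM. Cited1, a marker of the same layer, was also highest in SF_ConD 3, at 86.1 FPKM, and was listed at 0 in SF_HPD 2 and SC_ConD 2. Of the luminal progenitor genes, the ETS factor genes Elf3 and Ehf reached 32.1 and 29.7 FPKM in SF_HPD 2, and 26.9 and 9.61 FPKM in SF_ConD 3. Kit, the receptor gene of the same cells, was highest in SF_ConD 3 at 12.7 FPKM and at 0.246 FPKM in SF_HPD 2. The next highest libraries for Kit were SC_ConD 1 at 6.61 FPKM and SF_HPD 1 at 5.27 FPKM. Like SF_ConD 3, both lean toward long genes, as does SF_HPD 4, with Kit at 1.93 FPKM. The part of the length trend in the levels of SF_ConD 3 was not tested.

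Milk protein genes were mostly silent, and Glycam1 did not follow the other secretory genes. Csn1s1, Csn1s2a, Csn2 and Wap did not exceed 0.354 FPKM in any library, whereas Csn3, the kappa casein gene, was at 35.9 FPKM in SF_HPD 3 and 39.6 FPKM in SC_ConD 3. Wfdc18, another secretory gene, was highest in the same pair of libraries, at 69.0 and 84.4 FPKM. These were also the 2 libraries with the most Krt14. Glycam1, which is made both by mammary epithelium and by the high endothelial vessels of lymph nodes, was at 124 to 1545 FPKM in the lymphoid-rich libraries, and at 0.796 FPKM or less elsewhere. Within SF_ConD, the lymphoid-rich replicates 1, 4 and 5 had Epcam at 29.8, 67.4 and 20.7 FPKM and replicates 2 and 3 had 60.2 and 178 FPKM. Cd207, of the Langerhans cells that also carry Epcam, did not exceed 1.65 FPKM in any library. Of the basal and myoepithelial list, Acta2, Cnn1 and Myh11 are shared with vascular smooth muscle, and Acta2 was at 30.9 FPKM or more in each library, SF_HPD 4 included.

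The genes whose pattern was most like the members were ranked by Pearson correlation with the mean of the 9 genes, each scaled to unit SD on log2(FPKM + 1). Over 13 libraries the closest of 12327 named genes were Vill (r = 0.945), Tead2 (0.937), B4galt4 (0.922), Cldn4 (0.921), the adaptor gene Grb7 (0.917), the mitochondrial carboxykinase gene Pck2 (0.907), Dkkl1 (0.904), the mammary transcription factor gene Tfap2c (0.904), Gpr160 (0.904), Wfdc2 (0.896), Hs3st6 (0.893) and the epithelial sorting adaptor gene Ap1m2 (0.880). All 12 were lowest in SF_HPD 4. The libraries share their scaling and tissue mixture, so these values describe likeness only. Without SF_HPD 2 and 4, 1 of the 12, Ap1m2, was still among the closest 12, which then began with Mtmr7 (0.980), Tjp3 (0.979), Krt7 (0.974) and Mapk13 (0.971). Among the members, Krt19 followed their mean most closely over 13 libraries (0.972) and Cldn3 least (0.612), while without SF_HPD 2 and 4 Cldn3 was at 0.974 and Krt14 was least, at 0.787.

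SF_HPD against SF_ConD concerns the high-protein diet in mice with fragmented sleep. The means of Epcam were 25.2 ± 22.6 FPKM and 71.1 ± 62.7 FPKM (SF_HPD and SF_ConD, SD, n = 5 each), and those of Cldn3 9.12 ± 13.2 FPKM and 54.6 ± 46.8 FPKM. Those of Krt18 were 1101 ± 2193 FPKM in SF_HPD and 346 ± 177 FPKM in SF_ConD, the SF_HPD mean being carried by replicate 2. As log2 fold changes of FPKM + 1 in limma, 8 of 9 members were negative, from -0.78 (SE 0.84) for Cldn7 to -3.26 (SE 0.91) for Cldn3, and Krt5 was at 0.04 (SE 1.33). Their median was -1.60, against 0.01 over all 14421 genes. Limma with Benjamini-Hochberg adjustment called 0.0% of all genes, with 273 genes at an unadjusted p under 0.05. Limma-voom on recovered reads also called 0, with 210. No member was free of overlap between the groups, against 0.229% of genes lower and 0.229% higher in SF_HPD without overlap, and nothing is read from these counts about the members, since the contrast entered their choice.

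SF_HPD 2 and 4 moved the size of these differences in opposite directions. The median of the 9 went from -1.60 to -0.60 without SF_HPD 4 and to -2.26 without SF_HPD 2. Without SF_HPD 4 the log2 fold changes were -1.04 for Epcam, -0.23 for Cldn7, -0.43 for Krt8, -0.11 for Krt18 and -0.60 for Krt19. Without SF_HPD 2 they were -2.26 for Epcam, -1.61 for Cldn7, -2.70 for Krt8, -2.94 for Krt18 and -2.98 for Krt19, and Krt5 turned to -1.31. Without both, all 9 were negative, from -0.63 for Krt5 and -0.85 for Krt14 to -1.54 for Krt19 and -1.81 for Cldn3, with a median of -1.32. Epcam was then at 26.1 ± 21.7 FPKM in SF_HPD (SD, n = 3) and 71.1 ± 62.7 FPKM in SF_ConD (SD, n = 5), and the 3 SF_HPD values, 10.1 to 50.8 FPKM, still overlapped the SF_ConD range of 20.7 to 178 FPKM.

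**Figure D4:**
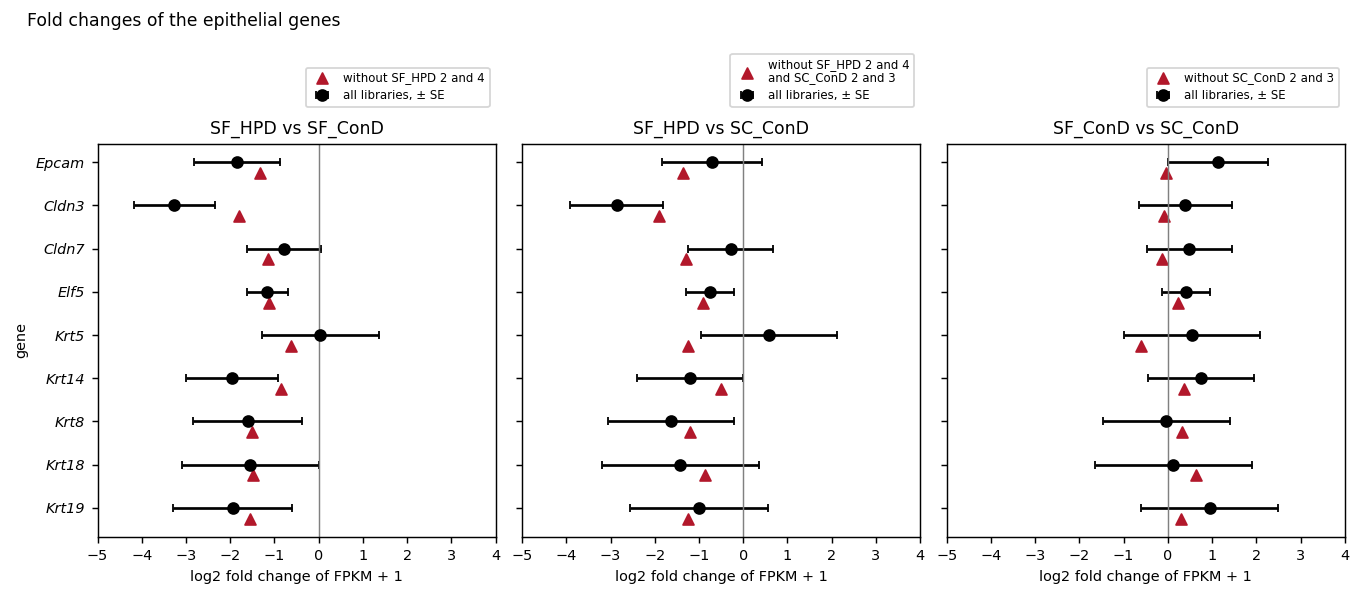
Log2 fold changes of FPKM + 1 of the 9 genes in the 3 comparisons, with all libraries (black points, ± SE) and without the libraries that stood apart (red triangles). In SF_HPD vs SF_ConD the median moves from -1.60 to -1.32, and in SF_ConD vs SC_ConD the triangles for Epcam, Cldn3 and Cldn7 lie at -0.0425, -0.0905 and -0.14.

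Among related genes the same comparison gave negative log2 fold changes in 17 of 18 general epithelial genes (median -0.61), in 8 of 8 hormone-sensing luminal genes kept (median -0.94) and in 4 of 4 milk and secretory genes kept (median -1.47). The luminal progenitor list was negative in 3 of 4 (median -0.47). Lists with the opposite sign were the basal and myoepithelial one, positive in 5 of 7 (median 0.35), the epidermal one, positive in 6 of 6 kept (median 0.82), and the mesothelial one, positive in 3 of 3 kept (median 1.92). Of the mesothelial genes kept, Upk1b and Upk3b reached 1 FPKM only in SF_HPD 2 and 3 and SC_ConD 2, and they are also among the uroplakin genes below. In SF_HPD the epidermal and mesothelial lists stood at 2.80 and 3.60 in replicate 2, and at most at 0.74 and 0.99 in the others. Nothing is read from the signs of these lists. Limma called none of their genes, nor any gene of the other related lists, and the lists were drawn up with this contrast known. Of other cell types, with no gene called, 12 of 12 B cell and lymph node genes (median -1.35) and 11 of 12 hepatocyte genes (median -1.39) were negative, and 8 of 8 muscle genes kept (median 1.94) and 4 of 4 uroplakin genes kept (median 1.71) were positive. Their mean log2(FPKM + 1) per library was 0.37 to 4.97 in SF_HPD and 0.51 to 5.56 in SF_ConD for B cells, 2.16 to 3.45 and 2.08 to 5.56 for hepatocytes, 0.80 to 9.75 and 0.36 to 3.08 for muscle, and 0.07 to 9.503 and 0.72 to 1.56 for uroplakins. The highest muscle value was that of SF_HPD 4 alone, with at most 1.96 in the rest of its group, and the highest uroplakin value that of SF_HPD 2 alone, with at most 2.11, and their part in the result was not tested. Muc1, a mucin gene, and Prom1, a luminal marker gene, were chosen here because they had no overlap between the groups. Over all genes, 0.229% were lower in SF_HPD without overlap, and nothing is read from these picked genes. The groups nearly touched for Muc1, at 1.02 FPKM in SF_HPD 3 and 1.06 FPKM in SF_ConD 2. Muc1 averaged 0.401 ± 0.378 FPKM and 2.48 ± 2.64 FPKM, and Prom1 0.677 ± 0.429 FPKM and 2.88 ± 2.25 FPKM (SF_HPD and SF_ConD, SD, n = 5 each).

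SF_HPD against SC_ConD set both treatments against undisturbed sleep on chow, and shares the SF_HPD libraries with the comparison above. The members' signs and counts here are therefore description only. Epcam averaged 25.2 ± 22.6 FPKM in SF_HPD (SD, n = 5) and 37.3 ± 28.8 FPKM in SC_ConD (SD, n = 3), and Cldn3 averaged 9.12 ± 13.2 FPKM and 36.9 ± 20.5 FPKM. The log2 fold changes of 8 of 9 members were negative, with a median of -0.999, against 0.02 over all genes. Of the related lists, 13 of 18 general epithelial genes (median -0.10) and 6 of 8 hormone-sensing luminal genes kept (median -0.32) were negative. So were 3 of 4 luminal progenitor (median -0.43), 3 of 4 milk and secretory (median -0.36) and 5 of 6 epidermal genes kept (median -1.43). Basal and myoepithelial genes were positive in 5 of 7 (median 0.28), and mesothelial genes kept in 2 of 3 (median 0.04). Limma called 0 members and 0.0% of 14421 genes. With the replicate block, Epcam was at 0.0763, Cldn7 at 0.35 and Krt19 at 0.13, so 5 of 9 members were negative, and again 0 genes were called. Without the 5 lymphoid-rich libraries Epcam (0.52), Cldn7 (0.74), Krt8 (0.27), Krt18 (0.63) and Krt19 (1.07) were positive too, as Krt5 was. In the same comparison 12 of 12 hepatocyte genes were negative (median -5.50, 7 of them without overlap), 10 of 10 adipocyte genes were negative (median -1.17) and 12 of 12 B cell and lymph node genes were positive (median 1.43), none of them called, and their part in the result was not tested. There were 531 genes at an unadjusted p under 0.05, among them the member Cldn3, at -2.86 (SE 1.05, adjusted p = 0.9999 in limma). Limma-voom called 0, with 500. No member was free of overlap, against 0.791% of genes higher and 0.853% lower without overlap. Without SF_HPD 4, 5 of 9 members were positive, and without SF_HPD 2 and 4 none was, Cldn3 then standing at -1.41. Without SF_HPD 2 and 4 and SC_ConD 2 and 3 the members ran from -0.50 for Krt14 to -1.90 for Cldn3, with the 1 SC_ConD library left assumed to vary like the other groups.

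SF_ConD against SC_ConD asked about sleep fragmentation on chow. It reuses the SF_ConD libraries, whose values against SF_HPD were known when the members were chosen. The members' signs and counts here are therefore description only. The levels overlapped for every member, with Epcam at 71.1 ± 62.7 FPKM in SF_ConD (SD, n = 5) and 37.3 ± 28.8 FPKM in SC_ConD (SD, n = 3), and Krt8 at 165 ± 92.0 FPKM and 151 ± 31.6 FPKM. Log2 fold changes were positive in 8 of 9 members, from 0.13 (SE 1.78) for Krt18 to 1.14 (SE 1.13) for Epcam, and Krt8 was at -0.03 (SE 1.43). Their median was 0.49, against -0.03 over all genes. Limma called 0 members (adjusted p = 0.9995 for each) and 0.0% of 14421 genes, with 828 genes and 0 members at an unadjusted p under 0.05, and limma-voom called 0, with 714. Among genes without overlap were 1.68% higher and 1.92% lower in SF_ConD, and no member. Without SC_ConD 2, the library with 79 Epcam reads, 4 of 9 members were positive and Epcam was at 0.0014. Without SC_ConD 2 and 3, Epcam was at -0.0425, Cldn3 at -0.0905 and Cldn7 at -0.14.

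Of the related lists in SF_ConD against SC_ConD, 15 of 18 general epithelial genes (median 0.54) and 8 of 8 hormone-sensing luminal genes kept (median 0.73) had positive log2 fold changes, and none passed. Basal and myoepithelial genes were negative in 5 of 7 (median -0.19), and luminal progenitor genes in 2 of 4 (median 0.0450). All 12 hepatocyte genes were negative (median -4.17), with a list mean of 2.08 to 5.56 in SF_ConD and 3.84 to 10.44 in SC_ConD, and all 12 B cell and lymph node genes were positive (median 2.63), with 0.51 to 5.56 in SF_ConD and 0.56 to 1.22 in SC_ConD. Muscle genes were negative in 8 of 8 kept (median -1.92), with a list mean of 0.36 to 3.08 in SF_ConD and 0.60 to 6.56 in SC_ConD. The part of these lists in the result was not tested. Areg, the amphiregulin gene of ductal growth, and Tnfsf11, the RANK ligand gene, were chosen because they had no overlap between the groups. Over all genes, 1.68% were higher in SF_ConD without overlap, and nothing is read from these picked genes. Their Pearson correlations with the mean of the members were 0.211 and -0.349 over all libraries, and -0.0429 and -0.0643 without SF_HPD 2 and 4. In the latter setting the other hormone-sensing luminal genes kept ran from 0.286 (Esr1) to 0.858 (Wnt4). Areg averaged 6.74 ± 10.4 FPKM in SF_ConD and 0.0163 ± 0.0282 FPKM in SC_ConD, and Tnfsf11 averaged 1.59 ± 0.901 FPKM and 0.00885 ± 0.0153 FPKM (SD, n = 5 and 3). Their adjusted p values in limma were 0.861 and 0.787. In SF_ConD 1, 4 and 5, which are lymphoid-rich, Tnfsf11 stood at 1.75 to 2.54 FPKM, whereas SF_ConD 2 and 3 had 0.869 and 0.467 FPKM. The epidermal list was negative in 6 of 6 genes kept (median -2.27), the list in which SC_ConD 3 stood highest.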

How the data were processed

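The authors deposited 1 table of FPKM per gene for 13 libraries of inguinal white adipose tissue, with gene names, lengths and coordinates. The submitters' processing notes name HISAT2 2.0.5, CASAVA, featureCounts 1.5.0-p3 and the mouse build mm8, with neither role nor order. Of 54532 identifiers, 53499 had the same start and end in GENCODE M21, so coordinates are given as listed, on GRCm38.

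FPKM times gene length, divided by the smallest step of the library, was whole (tolerance 0.05) for at least 99.988% of values, which gave the recovered reads. The divisor implied by FPKM was 0.479 to 1.23 times the recovered total, and the sources used here do not give its origin. No pair of libraries was alike within sampling noise (lowest chi-square per degree of freedom 98.2). Group means of log2(FPKM + 1) were fitted to all 13 libraries with limma 3.58.1 under R 4.3.3 (trend and robust eBayes, two-sided), over the 14421 genes that reached 1 FPKM in 3 or more libraries, with Benjamini-Hochberg adjustment at 0.05. The limma fit was tested on reads simulated around a shared mean profile with added changes. That simulation held no mixture of tissues and no length trend, so it does not show how the fit performs on libraries like these. The members, marker lists and most alternatives were chosen with earlier results of these data known. From each list up to 3 genes of highest mean were named, with the 12 genes most like the members. The labels describe individual mice and number the replicates in each group. Between SF_HPD and SC_ConD, deviations of same-numbered libraries correlated (0.711, 0.333 and 0.191), but number 3 was not highest with its own number. SF_HPD 1 and SC_ConD 1, at 0.711, are also the libraries that lean most toward long genes (0.527 and 0.517). The part of that lean in the correlation was not tested. Nothing in the labels states a pairing. The replicate block was fitted over all 3 groups, so it also ties the SF_ConD numbers. Intervals and floors cover counting error only.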

Additional observations from a re-analysis of the deposited data

Results flagged for a closer look

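A library stood far from the rest of its group in 13 of 32 group checks, by Dixon's ratio of the gap to the group's range (critical value 0.71 for 5 libraries). For normally distributed values chance exceeds this in about 1 group in 20. The members were checked as FPKM, not as logs, where a high value stands out more easily, so that rate may not hold for them. The lists were checked as mean log2(FPKM + 1). SF_HPD 2 was the high library for Cldn7 (0.908), Krt5 (0.965), Krt8 (0.844), Krt18 (0.928) and Krt19 (0.800), and for the epidermal (0.810) and mesothelial (0.748) lists. In that library the mesothelial list rested on Upk1b and Upk3b, which are also uroplakin genes, with Msln at 3.44 FPKM and 2 of its 6 genes at 0. Krt15 and Ivl were the highest genes of its epidermal list, and Krtdap (31.98 FPKM), Dmkn (20.4 FPKM) and Krt10 also added to it. There 4 of 14 epidermal genes were at 0, against 5 to 9 in the rest of SF_HPD. Uroplakin genes stood at 10.02 to 6966 FPKM in that library. SF_HPD 3 was the high library for Cldn3 (0.712) and Krt14 (0.860), and is also where Csn3 and Wfdc18 are high. SF_ConD 3 was the high library for Cldn3 (0.722), Cldn7 (0.761) and the luminal progenitor list (0.730), and its expression leaned toward long genes (rank correlation 0.447). SF_ConD 2 was the high library for the epidermal list (0.834), at a mean log2(FPKM + 1) of 0.76. Their causes were not tested.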

How the results depend on the processing

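No member was called under any alternative run. Calls over all genes stayed at 0 except with 1 library left out: 0 to 194 in SF_ConD against SC_ConD and 0 to 195 in SF_HPD against SC_ConD (both highest without SC_ConD 1), and 0 to 1 in SF_HPD against SF_ConD (Gm22478, without SF_HPD 5). Signs of log2 fold changes turned as follows, and the cause was not tested. In SF_HPD against SF_ConD, Krt5 was at -0.70 with a pseudocount of 0.1, -0.27 as TPM, -1.21 in limma-voom and -0.63 without SF_HPD 2 and 4. In SF_HPD against SC_ConD, the replicate block gave Epcam 0.0763, Cldn7 0.35 and Krt19 0.13. Krt5 was there at -0.0772 without SF_HPD 2 and 4, -0.58 without SC_ConD 2 and 3 and -1.24 without all 4. Without the 5 lymphoid-rich libraries Epcam was at 0.52, Cldn7 0.74, Krt8 0.27, Krt18 0.63 and Krt19 1.07. In SF_ConD against SC_ConD, Krt8 was at 0.21 as TPM, 0.0254 with median-of-ratios scaling, 0.24 in limma-voom, 0.98 with the replicate block, 0.31 without SC_ConD 2 and 3 and 0.52 without the lymphoid-rich libraries. Without SC_ConD 2 and 3, Epcam was at -0.0425, Cldn3 -0.0905, Cldn7 -0.14 and Krt5 -0.62. With each library left out in turn, ranges that crossed 0 were, in SF_HPD against SF_ConD, Krt5 -1.31 to 0.88. In SF_HPD against SC_ConD they were Epcam -1.85 to 0.0979, Cldn7 -1.12 to 0.26, Krt5 -0.76 to 1.43, Krt14 -2.70 to 0.0750, Krt18 -2.81 to 0.0165 and Krt19 -2.04 to 0.34. In SF_ConD against SC_ConD they were Cldn3 -0.19 to 0.74, Elf5 -0.13 to 0.85, Krt5 -0.67 to 1.18, Krt14 -0.74 to 2.03, Krt8 -0.30 to 0.17 and Krt18 -0.32 to 0.83. The block changed no call; correlations of same-numbered deviations were -0.558, 0.19 and -0.316 for SF_ConD with SC_ConD, and -0.670 to 0.405 for SF_HPD with SF_ConD, so those numbers are not read as pairs. TPM moved the median of all genes to 0.15 and 0.25 in SF_ConD and SF_HPD against SC_ConD, and limma-voom to 0.27 and 0.15, with -0.15 in SF_HPD against SF_ConD. A mean filter of 5 FPKM left Elf5 without a value. Settings that leave out several named libraries were chosen after seeing the data. At 22 Epcam reads, SF_HPD 4 limits every ratio there.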
